A study of Homo sapiens with 24 samples.

Results

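Whether folic acid changes what OTX does to IMS-M2, a human acute myeloid leukaemia cell line, was measured in the 12 IMS-M2 libraries of a series of 24; the other 12 come from U937, a second leukaemia line. Both lines were kept in medium that contained folic acid (+FA) or lacked it (-FA), and in each medium they received OTX or DMSO, the solvent control, so that the IMS-M2 libraries form 4 groups of 3: +FA DMSO, +FA OTX, -FA DMSO and -FA OTX. OTX is an abbreviation in the labels, which state no dose or duration; general knowledge of the study gives it as birabresib (OTX015), which inhibits BET bromodomain proteins. The labels name no genetic change in either line, give no time of growth without folic acid, and do not state whether the 3 libraries of a group were grown apart. All p-values therefore measure the spread between these libraries alone. Polyadenylated RNA was sequenced, and the values are FPKM (fragments scaled to transcript length and library size). For each gene the log2 change with OTX in +FA was subtracted from that in -FA, both on log2(FPKM + 1). A positive difference is a larger rise or a smaller fall when folic acid was absent, and is called higher; a negative one is called lower. Of 23595 genes in the tables, the 11223 whose mean reached 1 FPKM in 1 or more of the 4 groups were tested.

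BET proteins bind acetylated histones and recruit the elongation machinery, and their inhibitors displace them, which typically lowers genes with strong enhancers and raises HEXIM1, which holds the elongation factor P-TEFb inactive. Folates carry the one-carbon units used to make thymidylate, purines and methionine, and serine is the main donor of those units. When amino acids run short or the endoplasmic reticulum is stressed, the transcription factor ATF4 is translated more and raises genes of serine and asparagine synthesis, amino acid import and tRNA charging. PU.1, encoded by SPI1, is the transcription factor that directs myeloid differentiation.

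The libraries were alike in their totals, with FPKM sums from 522659 to 613462 and 10418 to 10894 genes at 1 FPKM or more; sequencing depth is unknown. The +FA DMSO libraries differed most among themselves: Pearson's r across genes was 0.975 to 0.987 between them and 0.982 to 0.992 between libraries of the other groups, where genes are not independent replicates. The markers of myeloid leukaemia and haematopoiesis were present, with all 10 (PTPRC, CD33, KIT, SPI1, MPO, CEBPA, HOXA9, MEIS1, LYL1 and NPM1) at 1 FPKM or more in at least 1 group. Of the markers of other cells, some lay at or near 0 in every group, among them CD14 of monocytes, ELANE and CEACAM8 of granulocytes, KLF1 of erythroid cells, MS4A1 and CD8A of lymphocytes, and EPCAM and DCN of epithelium and stroma. Others did not, among them 4 of the 6 monocyte markers (LYZ, CD68, ITGAM and CSF1R), the granule protease CTSG, the megakaryocytic integrin ITGA2B, the B cell gene CD79A and the epithelial or stromal genes KRT18, KRT8 and VIM, which were above 1 FPKM in at least 1 group. In bulk RNA of this kind, fewer cells of a type and less RNA per cell cannot be told apart. Whether the +FA and -FA tables share a normalization is not stated, so a level in one set beside a level in the other is untested wherever it is given below.

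The response to OTX itself was broad in both conditions. With folic acid 3341 genes rose (29.8% of those tested) and 3750 fell (33.4%), and without it 3085 rose (27.5%) and 3370 fell (30%). The folic acid difference was called for 779 genes at a limma adjusted p below 0.05 (6.94%), of which 374 were higher (3.33%) and 405 lower (3.61%). The difference reached 1 on the log2 scale, in either direction, in 80 of them (33 higher and 47 lower), and the median over all genes tested was 0.03.

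The called genes fell into several patterns. Among the 374 higher genes, 163 fell in both conditions but less without folic acid, 95 fell in +FA and were not called in -FA, 62 rose in -FA only by the test, 26 rose in both and more so in -FA, and 28 fell in +FA and rose in -FA. Among the 405 lower genes, 186 rose in +FA and were not called in -FA, 55 rose in both but less in -FA, 80 were called only as a fall in -FA, 51 fell in both and further in -FA, and 33 rose in +FA and fell in -FA. The difference between the -FA and +FA levels, which is untested across the tables, was larger in DMSO than in OTX for 577 of the 779 and larger in OTX for 202. For 192 called genes the tables give a locus that holds another gene too, and their values can include its reads. Neither the level differences nor the shared loci were counted over all genes tested, so these counts do not set the called genes apart.

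Opposite OTX changes, called in both conditions, were found in 61 of the 779. Among those that reached a mean of 5 FPKM in a group, the 6 with the smallest p-values that rose without and fell with folic acid were CHAC1, PCK2, PSAT1 and WARS of the ATF4 list, described below, with IFI30 and APOL2. IFI30, a lysosomal reductase that helps MHC class II presentation, went from 19.5 ± 2.53 to 15.96 ± 0.286 FPKM (mean ± SD, n = 3) in +FA and from 15.5 ± 0.988 to 22.5 ± 1.62 in -FA. APOL2, an apolipoprotein L that interferon induces, had a difference of 0.73. In the other sense, under the same floor, stood the uncharacterised LOC100129250 (-1.01), the membrane protein gene EVA1B (-0.98), MND1 of meiotic recombination (-0.98), the iron-sulfur cofactor chaperone HSCB (-0.73), the chromatin remodelling subunit VPS72 (-0.68) and the replication factor GINS2 (-0.57). HSCB stood at 5.67, 4.86 and 4.77 FPKM in the +FA DMSO libraries, 5.99, 6.37 and 6.44 in +FA OTX, 7.44, 8.33 and 7.43 in -FA DMSO and 5.33, 5.03 and 5.499 in -FA OTX. The OTX libraries of HSCB lay above DMSO with folic acid and below it without.

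Beside CHAC1, DDIT4, PCK2, CD53 and KCNK17, treated below, the 10 leading higher genes were C21orf90 (1.601), FAM45A (1.59), CRIPAK (1.41), the histone gene HIST1H2BC (1.35) and ENPP2 (1.32). C21orf90 shares its locus in the tables with 17 other genes and FAM45A with 1. ENPP2, which encodes the secreted enzyme autotaxin, stood at 4.95, 7.32 and 8.18 FPKM in the +FA DMSO libraries, 0.201, 0.183 and 0.213 in +FA OTX, 1.91, 1.72 and 2.07 in -FA DMSO and 0.122, 0.132 and 0.126 in -FA OTX. It fell to near 0 with OTX in both tables, from DMSO levels that were higher in the +FA table, and it was called in all 12 fits that left out 1 library. C21orf90, FAM45A, CRIPAK and HIST1H2BC were called in 5, 6, 3 and 4 of these.

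**Figure D1:**
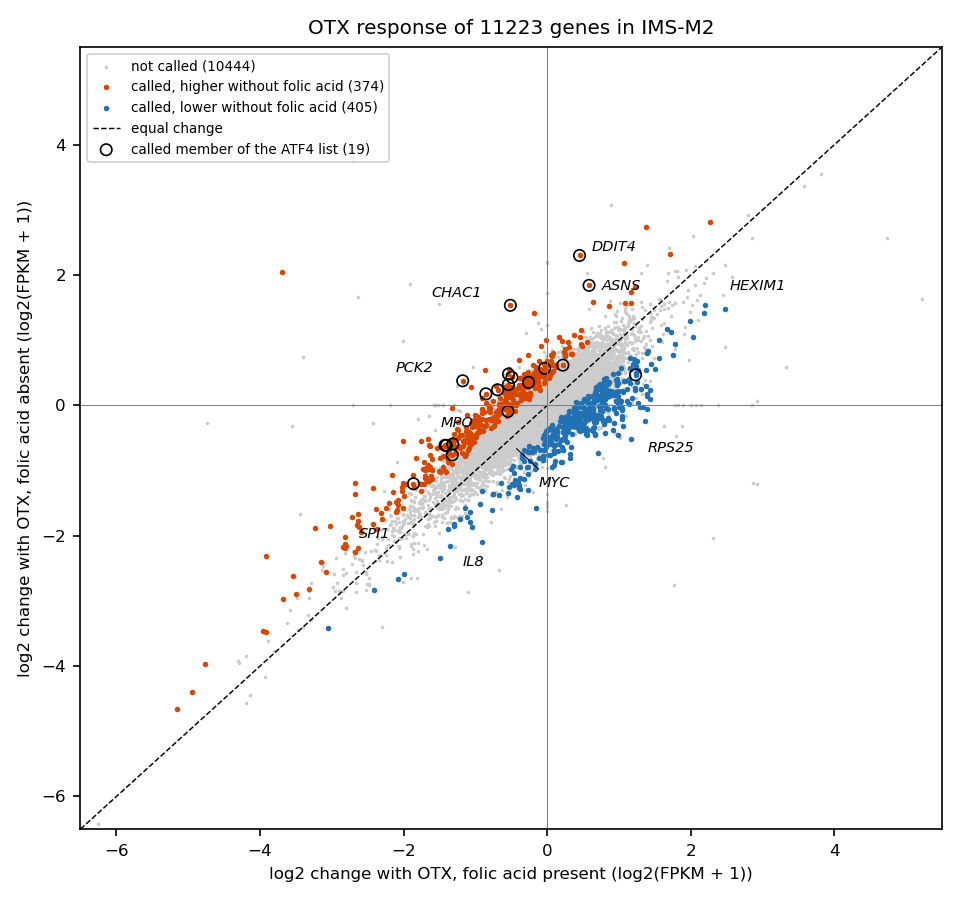
Each point is a gene; the horizontal axis gives its log2 change with OTX in +FA and the vertical axis that in -FA, both on log2(FPKM + 1), with genes called higher in orange, genes called lower in blue and the rest in grey. Most genes follow the dashed line of equal change; CHAC1, DDIT4, PCK2 and ASNS, members of the ATF4 list (circled where called), stand above it.

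Of 9 listed genes that BET inhibitors raise, all tested, 1 was higher and 0 lower in the difference, and of 12 tested genes that they lower 1 was higher (CSF1R) and 1 lower (BCL2), both described below; at an unadjusted p below 0.05 in limma the counts were 4 and 0, and 5 and 2. The calls were 2 and 2, and 5 and 2, without +FA DMSO library 1. The called gene of the first list was HIST2H2BE, a histone gene, which stood at 1.69, 1.47 and 1.48 FPKM in the +FA DMSO libraries, 12.1, 10.99 and 10.7 in +FA OTX, 2.03, 2.45 and 2.201 in -FA DMSO and 22.1, 20.4 and 22.8 in -FA OTX. It rose in both tables without overlap of the groups and more so without folic acid (difference 0.55 ± 0.110 (SE), adjusted p = 0.0212 in limma), and the call was kept in 7 of the 12 fits without 1 library. HEXIM1 had a difference of -0.28 ± 0.134 (SE), adjusted p = 0.184 in limma, and MYC, a driver of growth and a common target of BET inhibitors, one of -0.15 ± 0.0934 (SE), adjusted p = 0.304 in limma. The serpin SERPINI1 (difference -0.01, adjusted p = 0.969), the BET protein BRD2 (0.19, 0.323) and the cell cycle kinase CDK6 (-0.01, 0.973) were not called either. A total of 64 genes of ribosome assembly and growth that MYC drives were tested. Of these 0 were higher and 2 lower, beside 3.33% and 3.61% of all genes tested, with a median difference of -0.03. At an unadjusted p below 0.05 in limma 8 were higher and 13 lower. Without +FA DMSO library 1 the call counts were 14 and 11, and without any other library 0 and 0 to 5. CD180, a surface relative of the Toll-like receptors, lay below the filter, at a mean of 0.0389 FPKM in +FA DMSO and 0.0516 in -FA DMSO.

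The clearest group was the amino acid response. Of 46 listed genes of serine synthesis and ATF4 targets 39 were tested, and 18 were higher and 1 lower, beside 3.33% and 3.61% of all genes tested. Their median difference was 0.40, made of a median change with OTX of -0.23 in +FA and 0.27 in -FA. In +FA 20 members fell and 12 rose, beside 33.4% and 29.8% of all genes tested. In -FA 8 fell and 21 rose, beside 30% and 27.5%. Of the 18, 13 were called with all libraries and again in each of the 12 fits that left out 1 library, which 0.535% of all genes tested did as higher and 0.16% as lower. The list was drawn up with earlier results of these data known, so its direction is no independent evidence.

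The promoter windows of CHAC1 and ASNS hold the letters of the element that ATF4 is known to bind with C/EBP partners. They are shown because, of the called list members found with these letters, theirs had the largest differences. DDIT4 and PCK2, whose differences were larger than that of ASNS, are not among the members found with them. CHAC1 degrades glutathione and ASNS makes asparagine. Each sequence is the 250 bases before the start of the gene in RefSeq, build GRCh38.p14, 5′ to 3′ on the strand of the gene, with the match to TGATGNAA or its reverse complement in capitals. CHAC1 is read from chr15:40953221-40953470 on the plus strand and ASNS from chr7:97872409-97872658 on the minus strand, the first of 2 starts listed.
CHAC1: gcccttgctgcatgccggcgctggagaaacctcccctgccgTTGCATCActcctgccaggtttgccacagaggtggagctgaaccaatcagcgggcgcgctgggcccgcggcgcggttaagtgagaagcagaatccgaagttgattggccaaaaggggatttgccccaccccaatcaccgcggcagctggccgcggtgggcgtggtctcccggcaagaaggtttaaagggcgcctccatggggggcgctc
ASNS: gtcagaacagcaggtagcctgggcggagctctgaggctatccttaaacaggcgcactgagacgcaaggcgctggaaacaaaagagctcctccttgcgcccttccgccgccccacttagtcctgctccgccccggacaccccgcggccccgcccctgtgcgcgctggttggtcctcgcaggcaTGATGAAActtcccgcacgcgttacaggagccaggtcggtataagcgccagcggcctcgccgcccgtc
The match lies 209 to 202 bases before the start of CHAC1, on the opposite strand, and 68 to 61 bases before that of ASNS, on the same strand. Searched on both strands in windows from 250 bases before to 50 after each start, the letters were present in 3.62% of 35116 windows and in 1.89% of the 11990 windows of tested genes, of which 8244 matched the table by symbol. Of the 39 tested list members 29 matched, and 9 of their 48 windows (18.8%) held the letters. The members were ASNS, ATF3, CEBPG, CHAC1, JDP2, SLC1A4, SLC1A5, SLC3A2 and SLC7A1. Among all genes called higher 2.65% of windows held them, and among the list members called higher 5 of 22 (22.7%). The 18.8% and 22.7% describe the list, which was made up in part of ATF4 targets, and not the folic acid difference. A match describes the sequence and is not a site of binding, and many ATF4 elements lie outside such a window.

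CHAC1 had the largest difference among called genes that reached a mean of 5 FPKM in a group, small RNAs left out, 2.05 ± 0.146 (SE), adjusted p = 4.94e-05 in limma. It stood at 7.05, 6.09 and 6.26 FPKM in the +FA DMSO libraries, 4.202, 3.64 and 4.93 in +FA OTX, 5.13, 4.51 and 5.41 in -FA DMSO and 16.3, 14.99 and 18.1 in -FA OTX. OTX libraries lay below all DMSO libraries with folic acid and above them, about 3 times as high, without it. The log2 change was -0.51 in +FA and 1.54 in -FA.

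DDIT4, an inhibitor of the growth kinase complex mTORC1, stood at 17.9, 19.1 and 18.5 FPKM in the +FA DMSO libraries, 25.04, 21.99 and 30.5 in +FA OTX, 13.1, 12.7 and 13.4 in -FA DMSO and 66.4, 59.3 and 81.00 in -FA OTX. It rose in both conditions without overlap of the groups, by 0.45 and 2.301 on the log2 scale, with a difference of 1.85 ± 0.171 (SE), adjusted p = 0.0003 in limma. PCK2, the mitochondrial form of phosphoenolpyruvate carboxykinase, stood at 38.9, 40.9 and 41.9 FPKM in the +FA DMSO libraries, 18.9, 14.4 and 19.3 in +FA OTX, 35.97, 33.1 and 37.8 in -FA DMSO and 48.4, 42.4 and 49.2 in -FA OTX. It fell by 1.18 in +FA and rose by 0.38 in -FA, a difference of 1.55 ± 0.150 (SE), adjusted p = 0.000395 in limma. ASNS stood at 37.6, 55.6 and 53.6 FPKM in the +FA DMSO libraries, 70.4, 76.4 and 71.6 in +FA OTX, 47.96, 45.1 and 46.95 in -FA DMSO and 163, 175 and 172 in -FA OTX. All OTX libraries lay above the DMSO libraries in both tables, but the rise of ASNS was 0.58 with folic acid and 1.84 without it (difference 1.26 ± 0.169 (SE), adjusted p = 0.00332 in limma). These 4 genes lie at chr15:41245635-41248717, chr10:74033676-74035797, chr14:24563482-24573339 and chr7:97481428-97501854 in the deposited tables (hg19).

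**Figure D2:**
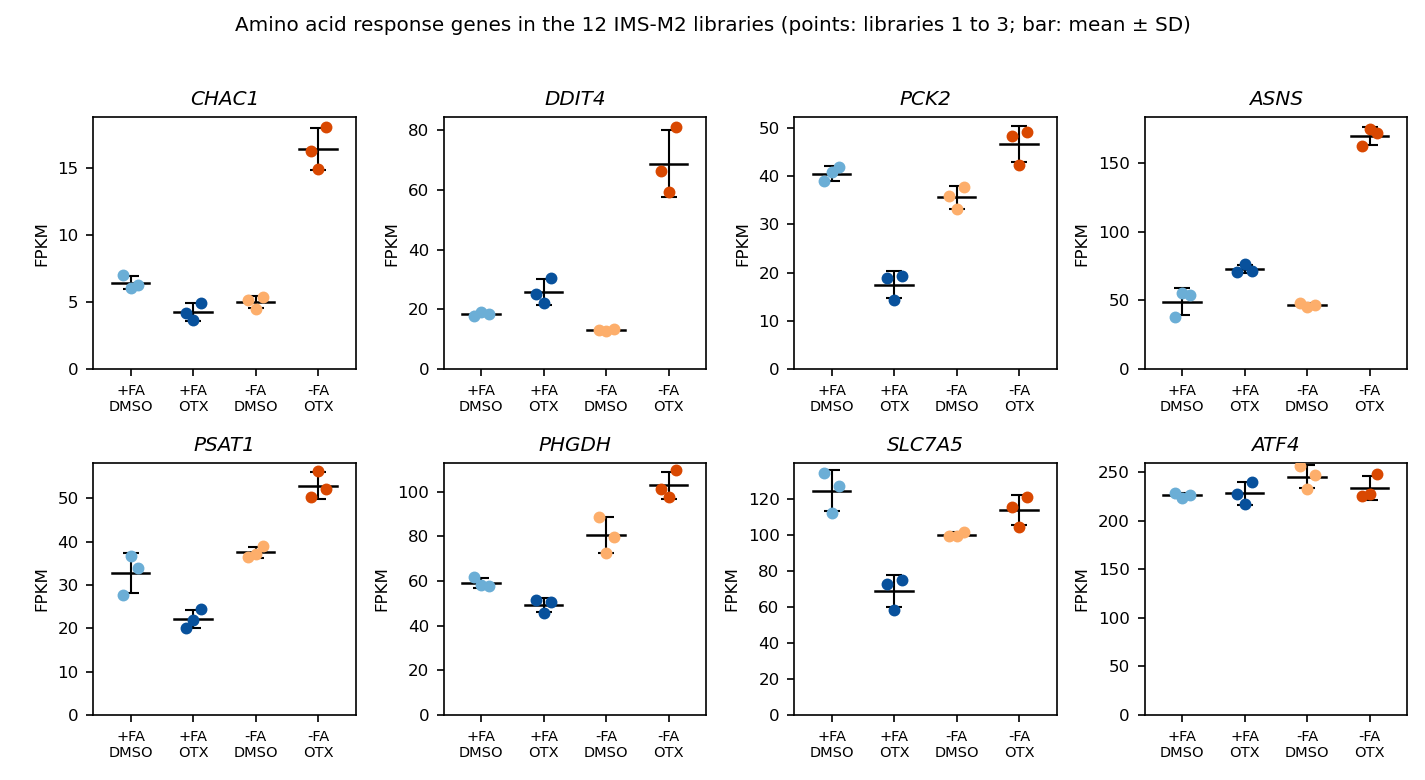
FPKM of 8 genes in the 12 IMS-M2 libraries; each point is a library, and the bar gives the mean ± SD of the 3 libraries of a group. In CHAC1, PCK2, PSAT1 and PHGDH the OTX libraries lie below DMSO in +FA and above it in -FA, while ATF4 itself lies between 217 and 256 FPKM in all 12.

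The first enzymes of serine synthesis fell with OTX in the presence of folic acid and rose in its absence. PHGDH, which catalyses the first step, stood at 61.8, 58.2 and 57.7 FPKM in the +FA DMSO libraries, 51.5, 45.9 and 50.8 in +FA OTX, 88.7, 72.7 and 79.8 in -FA DMSO and 101, 97.7 and 109.6 in -FA OTX. PSAT1, the second enzyme, stood at 27.7, 36.7 and 33.9 FPKM in the +FA DMSO libraries, 20.2, 22.02 and 24.3 in +FA OTX, 36.5, 37.1 and 38.98 in -FA DMSO and 50.2, 56.3 and 52.01 in -FA OTX. For both genes the OTX libraries lay below every DMSO library with folic acid and above every one without it. The differences were 0.61 ± 0.122 (SE), adjusted p = 0.0202 in limma, and 1.02 ± 0.145 (SE), adjusted p = 0.00393 in limma, respectively. PSAT1 was called without each library in turn; PHGDH was called in 8 of the 12 such fits, with a largest adjusted p of 0.0642. PSPH, the third enzyme, had a difference of -0.00262 (adjusted p = 0.991).

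Transporters of amino acids were higher in 5 cases. SLC7A5, which imports large neutral amino acids such as leucine, stood at 134, 112 and 128 FPKM in the +FA DMSO libraries, 72.6, 58.6 and 74.98 in +FA OTX, 99.6, 99.4 and 102 in -FA DMSO and 116, 105 and 121 in -FA OTX. It fell by 0.85 with folic acid, where the groups did not overlap, and gave 0.18 without it (adjusted p = 0.154 in limma). SLC7A11, the cystine importer, fell by 0.69 in +FA and rose by 0.24 in -FA, from means of 1.66 to 0.651 and of 1.58 to 2.05 FPKM. The differences of the others were 0.604 for the glutamine transporter SLC1A5, 0.400 for the serine and alanine transporter SLC1A4 and 0.45 for the arginine transporter SLC7A1. SLC38A5, a glutamine and serine transporter outside the list that was chosen after its value was seen, fell in both conditions, from 114 to 3.24 FPKM with and from 91.1 to 4.89 without folic acid (difference 0.805, adjusted p = 0.00964).

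Other called members included 1 gene of tRNA charging and genes of transamination and stress signalling. WARS, which charges tRNA with tryptophan, changed by -0.49 in +FA and 0.43 in -FA, and VLDLR, a lipoprotein receptor, by -0.54 and 0.32. Of all 20 aminoacyl tRNA synthetases tested, 2 (WARS and MARS) were higher and 0 lower, beside 3.33% and 3.61% of all genes tested. Their median difference was 0.11. Without +FA DMSO library 1 the counts were 8 and 1, and without any other library 1 to 2 and 0. The secreted stanniocalcin STC2, the alanine transaminase GPT2, the proline synthesis enzyme PYCR1, the pseudokinase TRIB3 and the cystathionine synthase CBS fell in both conditions and fell less without folic acid, with differences of 0.72, 0.79, 0.66, 0.56 and 0.81. CEBPB, a transcription factor that pairs with ATF4, was the 1 lower member; its rise was 1.23 in +FA and 0.47 in -FA, and its call was kept in 3 of the 12 fits without 1 library. Among the members without a call were the stress sensor SESN2 (-0.05) and the ATF4 partner DDIT3 (0.28).

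The transcript of ATF4 itself did not pass the test in any of the 3 contrasts. It stood at 229, 223 and 226 FPKM in the +FA DMSO libraries, 227, 217 and 240.2 in +FA OTX, 256, 232 and 247 in -FA DMSO and 225, 228 and 248 in -FA OTX. The groups overlapped in both tables, with a difference of -0.08 ± 0.104 (SE), adjusted p = 0.625 in limma. ATF4 is controlled largely at translation, which these data do not measure.

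The count of the ATF4 list rested little on single libraries: it was 13 to 22 higher members over the 12 fits that left out 1 library and 15 to 23 over the other settings tried. Without each of the 3 +FA DMSO libraries in turn it was 22, 14 and 14 higher and 2, 0 and 0 lower.

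Few enzymes that use folate could be tested, and their calls did not depart clearly from those of all genes. Of 24 listed cytosolic and mitochondrial folate enzymes 19 were tested and 0 were called, with a median difference of 0.04. Of all genes tested 3.33% were higher and 3.61% lower, so 0 of 19 is not far from the share of all genes. At an unadjusted p below 0.05 in limma 2 were higher and 1 lower. These were the cytosolic serine hydroxymethyltransferase SHMT1 (-0.397, adjusted p = 0.0577), its mitochondrial counterpart SHMT2 (0.404, 0.0666) and the mitochondrial enzyme MTHFD2 (0.502, 0.0652). Without +FA DMSO library 1, 5 of the list were called higher and 1 lower, and without any other library 0. MTHFD2 stood at 74.3, 103 and 90.5 FPKM in the +FA DMSO libraries, 109.6, 126 and 107 in +FA OTX, 82.3, 84.8 and 83.1 in -FA DMSO and 156, 159.8 and 141 in -FA OTX. MTHFD2 rose with OTX in both tables without overlap of the groups, by 0.36 and 0.86 on the log2 scale. TYMS, which makes thymidylate, had a difference of 0.23 and was not called. In the methionine cycle and glycine cleavage list 3 of 22 tested members were higher and 0 lower, beside 3.33% and 3.61% of all genes tested. The 3 were CBS, the glycine cleavage enzyme AMT (1.02) and MAT2A (0.69), which makes S-adenosylmethionine. AMT and MAT2A were each called in 2 of the 12 fits without 1 library; the count of the list was 8 without +FA DMSO library 1 and 1 to 3 without any other. Methionine synthase MTR, which takes its methyl group from folate, had a difference of 0.00283 (adjusted p = 0.988). Of 42 tested enzymes that methylate or demethylate DNA and histones 0 were called, beside 3.33% higher and 3.61% lower of all genes tested. At an unadjusted p below 0.05 in limma 9 were higher and 4 lower, and their median was 0.18. Without +FA DMSO library 1, 10 of these were called higher and 4 lower, and without any other library 0 and 0 to 2.

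Most myeloid genes under PU.1 fell with OTX in both conditions, and several fell less without folic acid. Of 49 listed genes 31 were tested. In +FA 23 fell and 4 rose, beside 33.4% and 29.8% of all genes tested. In -FA 22 fell and 3 rose, beside 30% and 27.5%. In the difference 7 were higher and 1 lower, beside 3.33% and 3.61% of all genes tested. The median difference was 0.22, with median changes with OTX of -1.11 in +FA and -0.72 in -FA. SPI1, which encodes PU.1, stood at 84.3, 79.03 and 91.9 FPKM in the +FA DMSO libraries, 12.5, 10.1 and 11.5 in +FA OTX, 95.1, 82.1 and 86.7 in -FA DMSO and 19.95, 17.4 and 19.5 in -FA OTX. Groups did not overlap in either table, and the DMSO levels of the 2 tables overlapped while the OTX levels did not, a comparison across tables that is untested. SPI1 fell by 2.803 with folic acid and by 2.16 without it, a difference of 0.65 ± 0.133 (SE), adjusted p = 0.0231 in limma. Its difference ran from 0.57 to 0.71 over the fits without 1 library, but the call was lost in 5 of them: without +FA DMSO library 3 (adjusted p = 0.0529), +FA OTX library 2 (0.0537), -FA DMSO library 2 (0.0637), -FA OTX library 1 (0.0751) and -FA OTX library 3 (0.0602).

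PTPN6, the phosphatase SHP-1 of blood cells, stood at 90.99, 98.9 and 103 FPKM in the +FA DMSO libraries, 15.2, 12.8 and 13.9 in +FA OTX, 123, 118 and 127 in -FA DMSO and 38.3, 34.4 and 37.8 in -FA OTX. The fall was 2.72 and 1.71 on the log2 scale with and without folic acid, and the groups did not overlap in either table (difference 1.01 ± 0.116 (SE), adjusted p = 0.00144 in limma). CD53, a tetraspanin of leukocytes that is not on the list, was among the 10 leading higher genes, with a difference of 1.49 ± 0.229 (SE), adjusted p = 0.00637 in limma. It stood at 29.5, 40.5 and 49.5 FPKM in the +FA DMSO libraries, 4.87, 4.897 and 6.14 in +FA OTX, 31.6, 28.3 and 34.3 in -FA DMSO and 14.5, 11.2 and 14.3 in -FA OTX. The OTX libraries lay below DMSO in both tables, at a mean of 5.303 with and 13.3 FPKM without folic acid.

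CD53 is also shown for its promoter, since of the leading genes it holds the PU.1 core GAGGAAGT or its reverse complement, in capitals. These are the 250 bases before its second listed start, chr1:110872898-110873147, plus strand, GRCh38.p14, from RefSeq.
CD53: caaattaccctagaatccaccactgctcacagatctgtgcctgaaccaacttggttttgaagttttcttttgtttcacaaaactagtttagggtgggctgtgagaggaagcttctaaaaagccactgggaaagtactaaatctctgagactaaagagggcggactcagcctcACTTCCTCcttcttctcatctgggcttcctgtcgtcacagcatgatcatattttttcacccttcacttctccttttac
The match lies 78 to 71 bases before the start, on the opposite strand. These letters were in 2.59% of all 35116 windows, in 2.82% of those of tested genes and in 3.44% of those of genes called higher. They were in 6 of the 25 windows (24%) of the 18 members of the PU.1 list that matched the table, namely those of BTK, LCP1, PTPN6, SYK, TYROBP and VAV1. Of the 6 windows of the list members called higher 1 held them, that of PTPN6. The 24% describes the list and not the folic acid difference.

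For CSF1R and MPO, members of the list at low levels, the difference followed the DMSO level. CSF1R, the receptor of the monocyte growth factor M-CSF, stood at 1.49, 1.398 and 1.59 FPKM in the +FA DMSO libraries, 0.0301, 0.0175 and 0.0171 in +FA OTX, 0.427, 0.441 and 0.468 in -FA DMSO and 0.00599, 0.00596 and 0.00654 in -FA OTX. MPO, the peroxidase of myeloid granules, stood at 2.16, 1.98 and 2.39 FPKM in the +FA DMSO libraries, 0, 0 and 0.0124 in +FA OTX, 0.387, 0.461 and 0.473 in -FA DMSO and 0.0176, 0 and 0 in -FA OTX. With OTX both genes were at or near 0 in all 6 libraries, so their differences, 0.77 and 1.14 on log2(FPKM + 1), come from DMSO libraries that were higher in the +FA table. With a pseudocount of 0.1 FPKM the differences of CSF1R and MPO were 1.35 and 2.098 (adjusted p = 0.0414 and 0.0142 in limma). The thyroid hormone deiodinase DIO2 (1.46), outside the lists, showed the same pattern, from means of 3.03 to 0.00207 and of 0.462 to 0.004 FPKM.

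The other higher members of the PU.1 list were the integrin chain ITGAM (0.64), which fell in both conditions, its partner ITGB2 (0.61), which fell in +FA and did not pass the test in -FA, and the lysosomal protein LAPTM5 (0.595), which rose in both. The MHC class II chain HLA-DRA, outside the list, fell from 116 ± 5.75 to 15.7 ± 1.09 FPKM (mean ± SD, n = 3) in +FA and from 92.04 ± 9.69 to 21.9 ± 1.07 in -FA, a difference of 0.79 (adjusted p = 0.00764 in limma), while CIITA, the activator of class II genes, had a difference of 0.000355 (adjusted p = 0.999). Levels of monocyte and granulocyte markers are given beside these results, each table on its own scale. The summed level of 6 monocyte markers was 42.1 to 44.7 FPKM in +FA DMSO, 10.6 to 14.2 in +FA OTX, 28.8 to 32.8 in -FA DMSO and 11.4 to 15.3 in -FA OTX. For 5 granulocyte markers it was 34.8 to 39.0, 1.82 to 2.72, 21.8 to 23.2 and 1.45 to 2.03. The part of a shift in maturity in these results was not tested. The count of higher members was 13 without +FA DMSO library 1, 9 without -FA OTX library 2 and 3 to 5 without any of the other 10 libraries; 3 of the 7 (CSF1R, MPO and PTPN6) were called in all 12.

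**Figure D3:**
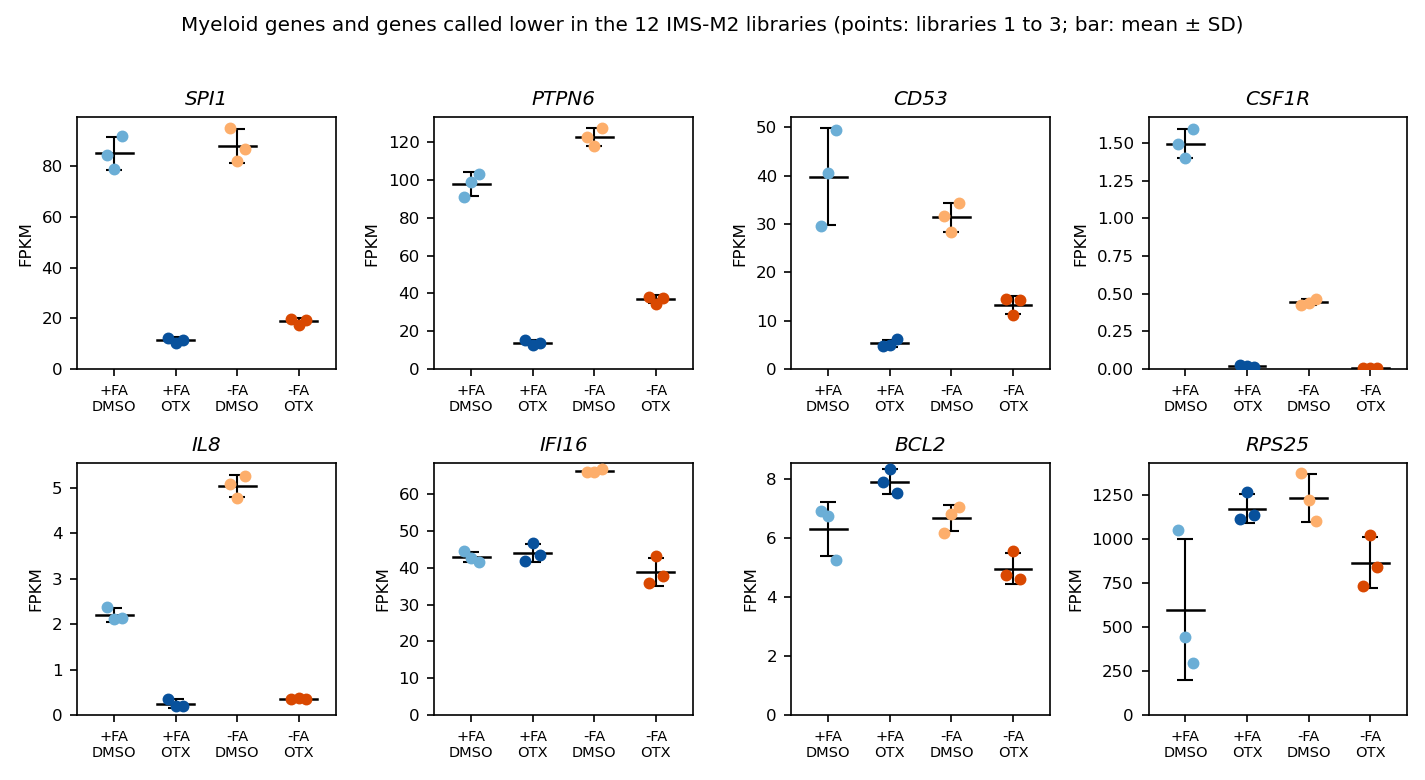
FPKM of 4 myeloid genes called higher (top) and 4 genes called lower (bottom) in the 12 IMS-M2 libraries, with the mean ± SD of each group of 3. SPI1, PTPN6 and CD53 remain higher under OTX in -FA than in +FA; RPS25 shows the scatter of the +FA DMSO libraries, with library 1 at 1053 FPKM and library 3 at 298.

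Lipid synthesis genes made up a further higher group. Of 32 tested genes of cholesterol and fatty acid synthesis 9 were higher and 0 lower, beside 3.33% and 3.61% of all genes tested, with a median difference of 0.30. The fatty acid desaturase FADS1 stood at 32.3, 32.7 and 35.7 FPKM in the +FA DMSO libraries, 35.3, 33.98 and 36.4 in +FA OTX, 32.9, 38.7 and 41.05 in -FA DMSO and 62.4, 63.7 and 68.7 in -FA OTX. In -FA it rose by 0.78 without overlap of the groups, while in +FA it gave 0.07 (adjusted p = 0.515), and its difference was 0.71 ± 0.122 (SE), adjusted p = 0.0126 in limma. The stearoyl-CoA desaturase SCD (0.59), the fatty acid synthase FASN (0.81), the desaturase FADS2 (0.72), TM7SF2 (0.68), ACACA (0.62), the elongase ELOVL6 (0.52) and LSS (0.51) were also higher. HMGCS1, an early enzyme of the sterol pathway, was not called (0.31, adjusted p = 0.211). FADS1 was called without each library in turn; the count of the list was 17 without +FA DMSO library 1, 11 without -FA OTX library 2 and 2 to 6 without any of the other 10.

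Genes of the interferon response gave 7 higher and 0 lower of 31 tested, beside 3.33% and 3.61% of all genes tested, with a median difference of 0.29. TAP1, which loads peptides for MHC class I, stood at 18.6, 18.6 and 19.4 FPKM in the +FA DMSO libraries, 19.1, 16.9 and 19.9 in +FA OTX, 19.7, 18.02 and 20.8 in -FA DMSO and 39.3, 36.4 and 44.8 in -FA OTX. With folic acid the groups overlapped; without it all OTX libraries were above all DMSO libraries, and the difference was 1.02 ± 0.128 (SE), adjusted p = 0.00203 in limma. TAP1 shares its locus in the tables with 2 other genes. RSAD2, an antiviral enzyme, stood at 5.39, 6.25 and 5.92 FPKM in the +FA DMSO libraries, 2.75, 2.47 and 2.07 in +FA OTX, 7.31, 6.800 and 6.45 in -FA DMSO and 5.76, 5.75 and 6.74 in -FA OTX. It fell by 1.001 in +FA and did not pass the test in -FA (-0.15), where its groups overlapped, and the difference was 0.85 ± 0.130 (SE), adjusted p = 0.00626 in limma. IFITM1, a membrane protein that blocks viruses, fell by 3.54 and 2.61 (difference 0.93). TAP1 and RSAD2 were called without each library in turn. The count was 15 without +FA DMSO library 1, 8 without -FA OTX library 2 and 2 or 3 without any of the other 10.

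In the glycolysis and hypoxia list 3 of 36 tested genes were higher and 0 lower, beside 3.33% and 3.61% of all genes tested. The counts were 8 and 3 without +FA DMSO library 1 and 1 to 4 and 0 without any other library. VEGFA, the vascular growth factor, stood at 11.6, 11.8 and 13.7 FPKM in the +FA DMSO libraries, 11.3, 10.9 and 12.7 in +FA OTX, 8.89, 9.54 and 9.14 in -FA DMSO and 20.3, 17.3 and 17.1 in -FA OTX. It had overlapping groups with folic acid and rose without it, by 0.91 (difference 0.99 ± 0.126 (SE), adjusted p = 0.00207 in limma). The creatine transporter SLC6A8, which is in no list, rose by 0.65 in +FA and 1.59 in -FA. CTSZ, a lysosomal cathepsin, fell by 1.65 and 0.61. It was 1 of 2 higher genes among 31 tested of the lysosome and autophagy list, a count not far from the 3.33% of all genes tested. That count was 11 without +FA DMSO library 1, 6 without -FA OTX library 2 and 1 without any of the other 10. KCNK17, a potassium channel, fell from 18.98 ± 2.16 to 1.12 ± 0.213 FPKM (mean ± SD, n = 3) in +FA and from 9.097 ± 0.652 to 1.75 ± 0.349 in -FA, a difference of 1.35 ± 0.161 (SE), adjusted p = 0.00169 in limma. VEGFA, SLC6A8, CTSZ and KCNK17 were called without each library in turn.

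The calls in both directions moved with +FA DMSO library 1. All 10 leading lower genes had their highest +FA DMSO value in library 1, as did 332 of the 405 called lower (82%) and 3568 of all 11223 tested (31.8%), and 0 of the 10 were called in every fit without 1 library. Library 1 was the lowest of the 3 in 9 of the 10 leading higher genes and in 242 of the 374 called higher (64.7%), against 47.9% of all tested; 6 of those 10 were called in every fit without 1 library. RPS25, a protein of the small ribosomal subunit, stood at 1053, 445 and 298 FPKM in the +FA DMSO libraries, 1115, 1267 and 1134 in +FA OTX, 1373, 1221 and 1103 in -FA DMSO and 735, 1021 and 839 in -FA OTX. Its difference was -1.69 ± 0.462 (SE), adjusted p = 0.0475 in limma, and it shares its locus in the tables with 2 other genes. The subunit EMC6 of a membrane insertion complex (-1.61), the G protein subunit GNG10 (-1.45), the mitochondrial ribosomal protein MRPL54 (-1.43) and RPL24 of the large ribosomal subunit (-1.37) had the same order of +FA DMSO libraries. Of 76 ribosomal protein genes tested 4 were lower and 1 higher, beside 3.61% and 3.33% of all genes tested, with a median of 0.06. Without library 1 these counts were 14 and 19, without -FA OTX library 2 they were 6 and 2, and without any of the other 10 libraries 0 or 1 and 0. Genes called lower had a median transcript length of 1040 bases in GENCODE v29, against 1254 for those called higher and 1143 for all tested, with a length for 89.9%, 94.1% and 92.7% of them. The part of library 1 and of length in these calls was not tested.

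A part of the mitosis genes was lower, and this count too depended on single libraries. Of 56 genes of mitosis and the G2/M phase tested, 9 were lower and 0 higher, beside 3.61% and 3.33% of all genes tested. The median difference was -0.26, with median changes with OTX of 0.34 in +FA and 0.10 in -FA. Of the 56, 33 rose with folic acid and 15 without it, beside 29.8% and 27.5% of all genes tested. CDK1, the kinase that starts mitosis, stood at 48.8, 44.1 and 35.4 FPKM in the +FA DMSO libraries, 86.5, 114 and 89.9 in +FA OTX, 64.8, 66.1 and 58.4 in -FA DMSO and 73.8, 99.96 and 71.04 in -FA OTX. The OTX libraries lay above the DMSO libraries in both tables, by 1.16 with folic acid and 0.35 without it (adjusted p = 0.0618 for the latter). NUF2 of the kinetochore (-1.12), the spindle protein HMMR (-0.98), the securin PTTG1 (-0.71) and BIRC5 (-0.68), known as survivin, were also lower, with NDC80, NUSAP1 and CENPA. The ubiquitin-conjugating enzyme UBE2C (-0.76) was lower too, but it fell in both conditions and further without folic acid. The count was 19 without +FA DMSO library 1, 15 without -FA OTX library 2 and between 0 and 2 without any of the other 10, and 0 of the 9 were called in all 12 of these fits. CDK2, a kinase of DNA replication, rose by 0.98 with folic acid, gave 0.14 without it and was called in all 12 (difference -0.84 ± 0.143 (SE), adjusted p = 0.0124 in limma).

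The 10 leading lower genes also held the axonemal assembly factor DNAAF3 (-1.41), MPLKIP (-1.29), TMEM183A (-1.35), LOC100652739 (-1.45) and LOC100507217 (-1.32). MPLKIP, a cell cycle protein, was called in 11 of the 12 fits without 1 library and the other 9 in 2 to 6.

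A total of 18 lower genes were called in every fit without 1 library. The chemokine gene IL8, among these 18, stood at 2.38, 2.11 and 2.13 FPKM in the +FA DMSO libraries, 0.356, 0.205 and 0.198 in +FA OTX, 5.08, 4.79 and 5.27 in -FA DMSO and 0.354, 0.377 and 0.355 in -FA OTX. It fell in both tables without overlap, by 1.36 and 2.15, from DMSO levels that were higher without folic acid (difference -0.79 ± 0.105 (SE), adjusted p = 0.00301 in limma). With a pseudocount of 0.1 FPKM the difference of IL8 was -0.74 and its adjusted p 0.0687 in limma. IFI16, a sensor of foreign DNA, stood at 44.4, 42.8 and 41.7 FPKM in the +FA DMSO libraries, 41.98, 46.8 and 43.5 in +FA OTX, 66.1, 65.98 and 66.9 in -FA DMSO and 35.8, 43.1 and 37.9 in -FA OTX. Its groups overlapped in +FA and were apart in -FA, where it fell by 0.76 (difference -0.79 ± 0.110 (SE), adjusted p = 0.00393 in limma).

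HES1, a repressor that Notch signals induce, stood at 1.02, 1.25 and 0.998 FPKM in the +FA DMSO libraries, 1.43, 1.42 and 1.35 in +FA OTX, 2.99, 2.45 and 2.51 in -FA DMSO and 1.18, 1.52 and 1.34 in -FA OTX. It did not pass the test in +FA (0.202, adjusted p = 0.0513) and fell by 0.64 in -FA (difference -0.84 ± 0.119 (SE), adjusted p = 0.00393 in limma); the Notch ligand JAG1 fell in both conditions and was higher (0.72). TCN1, which binds vitamin B12, fell from a mean of 0.777 to 0.0436 FPKM in +FA and from 2.44 to 0.128 in -FA (difference -0.85). CST7, an inhibitor of cathepsins, went from 1.14 to 0.0395 and from 2.88 to 0.0707 (difference -0.82). For both TCN1 and CST7 the OTX libraries were near 0 in either condition and the DMSO libraries higher in the -FA table. ZFP36L2, which promotes the decay of messenger RNA, fell from 192 ± 27.2 to 147 ± 5.05 and from 263 ± 3.39 to 108 ± 12.6 FPKM (mean ± SD, n = 3), a difference of -0.91 ± 0.148 (SE), adjusted p = 0.00936 in limma. HIST1H1B, a linker histone, rose by 1.22 in +FA only (0.24 in -FA, adjusted p = 0.0801) and was lower (-0.98), but its means lay between 0.169 and 1.72 FPKM.

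BCL2, the inhibitor of cell death, went in opposite directions. It stood at 6.94, 6.77 and 5.26 FPKM in the +FA DMSO libraries, 7.904, 8.36 and 7.52 in +FA OTX, 6.18, 6.81 and 7.05 in -FA DMSO and 4.76, 5.56 and 4.602 in -FA OTX. The OTX libraries lay above DMSO with folic acid and below it without, with changes of 0.29 (adjusted p = 0.0207) and -0.36 (0.00709) and a difference of -0.66 ± 0.140 (SE), adjusted p = 0.0249 in limma. The direction held without each library (-0.73 to -0.55), but the call was lost in 6 of the 12 fits: without +FA OTX library 1 (adjusted p = 0.0568) or 2 (0.0609), -FA DMSO library 2 (0.0656) or 3 (0.0512), and -FA OTX library 1 (0.081) or 3 (0.0647). BAD, which opposes BCL2, was also lower (-0.79). Of 16 tested genes of the BCL2 family these were the 2 called, beside 3.61% lower of all genes tested, and the median difference was -0.27. Without +FA DMSO library 1 the family had 7 lower and 1 higher, and without any other library 0 to 3 and 0.

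**Figure D4:**
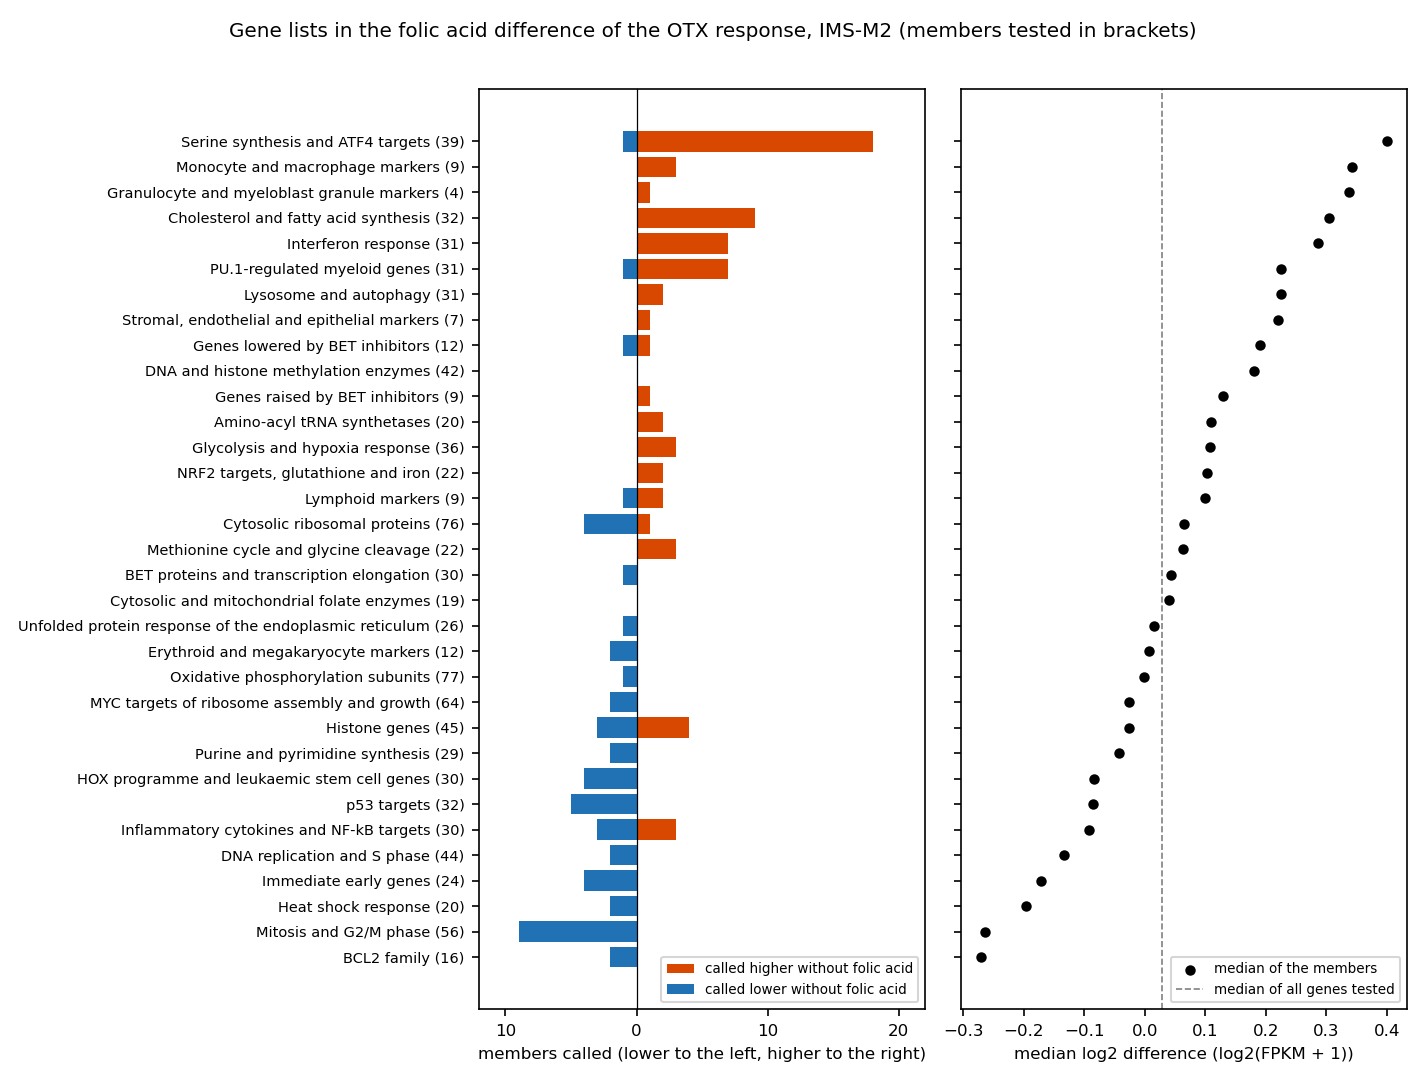
For 33 gene lists, sorted by their median, the left panel gives the number of members called higher (right of 0) and lower (left of 0) with the number tested in brackets, and the right panel the median log2 difference of the tested members beside that of all genes (dashed). The ATF4 list has the most higher members, 18 of 39, and the mitosis list the most lower ones, 9 of 56.

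Counts of calls over the whole table changed with the libraries used. Without +FA DMSO library 1 the number of called genes was 3429, without -FA OTX library 2 it was 1252, and without any other library it was between 82 and 298. The lowest count, 82, came without -FA OTX library 1. Called with all libraries and in all 12 of these fits were 78 genes, 60 higher and 18 lower. Among them 40 fell in both conditions and less without folic acid on log2(FPKM + 1), and 10 fell with and rose without it. Of the 78, 50 reached a mean of 5 FPKM in a group. For CSF1R, MPO and DIO2, among the 40, the smaller fall came from DMSO libraries that were higher in the +FA table. How many others of the 40 share this was not counted.

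**Figure D5:**
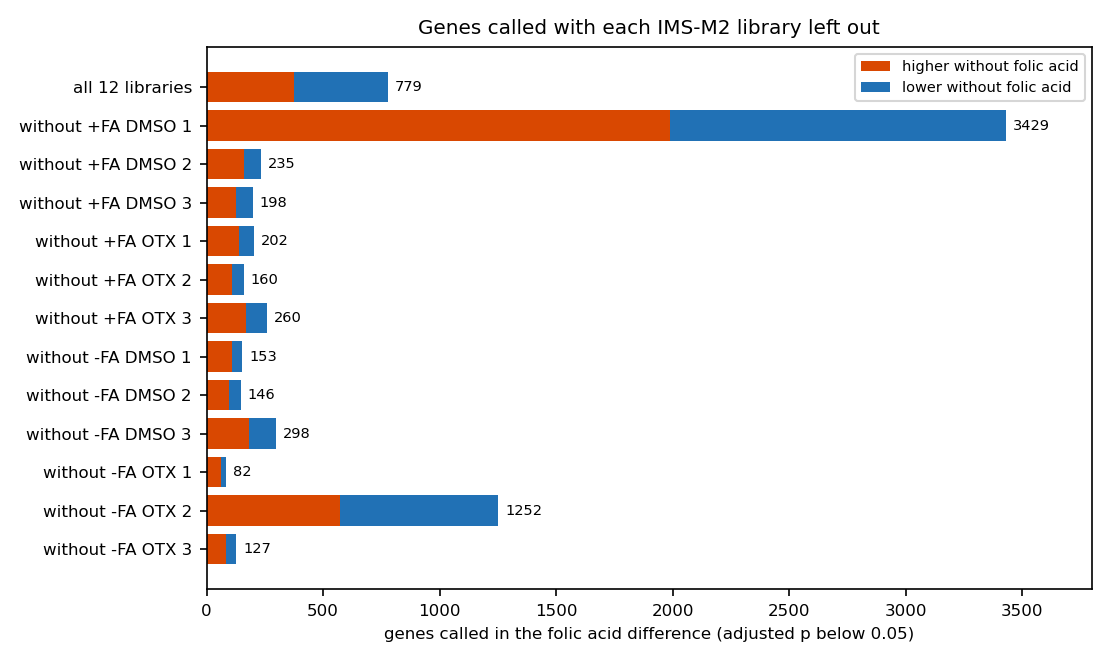
Number of genes called in the folic acid difference (adjusted p below 0.05) with all 12 IMS-M2 libraries and with each left out, split into higher (orange) and lower (blue). The count was 3429 without +FA DMSO library 1 and 82 without -FA OTX library 1.

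The same difference in U937 was set beside that in IMS-M2 with all 24 libraries in 1 fit, which tested 12197 genes. In U937 896 genes were higher (7.35%) and 1466 lower (12%), and the difference between the lines was called for 2571 genes as higher in IMS-M2 (21.1%) and 1777 as lower (14.6%). The controls of the lines are separate libraries. The line difference holds the IMS-M2 difference as 1 of its terms, so its sign in genes called for that difference was largely fixed by the choice and is no support. Of the 374 genes called higher in IMS-M2, 349 were also called in the line difference, 5 were higher and 92 lower in U937. Of the 405 called lower, 373 were called in the line difference, 149 were higher and 1 was lower in U937. Among all 11223 genes tested in IMS-M2, 7.02% were higher and 11.6% lower in U937.

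CHAC1 had a line difference of 1.71 (adjusted p = 2.08e-05 in limma), with 0.34 in U937. DDIT4 was lower in U937 (-0.86, adjusted p = 0.0158), and its line difference was 2.71 (adjusted p = 1.85e-05). The line differences of PCK2, PSAT1 and ASNS were 1.66, 1.11 and 1.24, with -0.11, -0.09 and 0.02 in U937, none of the 3 called there. In the ATF4 list 5 members were higher and 4 lower in U937, and 21 were higher and 4 lower in the line difference. The interferon list was higher in U937 too, with 10 members higher and 0 lower, and 8 higher and 4 lower in the line difference. Of all genes tested in IMS-M2, 7.02% were higher and 11.6% lower in U937, and 21.6% and 15.2% in the line difference. SPI1 had a line difference of 0.61 (adjusted p = 0.0177) and 0.04 in U937; for BCL2 these were -0.601 (0.019) and -0.06. CSF1R was lower in U937 (-0.52) with a line difference of 1.29, and the lipid genes FADS1, SCD and FASN were lower there (-1.03, -0.66 and -0.85) with line differences of 1.74, 1.25 and 1.66. IL8 was not called in the line difference (0.00498, adjusted p = 0.987); it was -0.79 in IMS-M2 and -0.797 in U937, where it was also called.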

How the data were processed

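RNA from 2 acute myeloid leukaemia lines was extracted with a Qiagen kit and made into libraries with a stranded Illumina kit for polyadenylated RNA, per the labels' protocols. The authors deposited FPKM per gene in 4 tables, 1 for each line and folic acid condition. According to the submitters' processing notes the tools were Cuffdiff 2.2.1, TopHat2 2.1.1 and bcl2fastq 2.17.1.14 and the build was hg19, with no roles stated; no depth is given, and how values were scaled between tables is not given in the sources used here.

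The 12 IMS-M2 libraries were fitted in limma 3.58.1 (R 4.3.3; moderated test with a mean-variance trend, Benjamini-Hochberg adjustment over all 11223 genes, threshold 0.05) on log2(FPKM + 1), for genes whose mean reached 1 FPKM in some group. The line difference used all 24 libraries. On simulated data for the folic acid difference over 11162 genes, 86% of changes of 1 and 31% of changes of 0.5 on the log2 scale were recovered, and 2.5% of calls were false. The simulated noise was independent for each gene, with no deviation shared across a library. Changes were placed only in genes with a mean log2(FPKM + 1) above 1 in every group. These rates therefore do not carry over to the calls in the real libraries. Alternatives were other pseudocounts, filters, scalings and limma settings, a replicate block and each library left out.

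The members and gene lists were chosen with earlier results of these data known. The genes named are study genes fixed whatever their result (MYC, HEXIM1, SERPINI1, BRD2, BCL2, CDK6, CD180 and SPI1), the 10 highest and 10 lowest called genes at 5 FPKM or more, small RNAs left out, which are called leading, under the same conditions the 6 with the smallest p in each sense among opposite OTX changes, up to 4 called members per list and direction (or 2 of a list with no call), and the 5 extremes of the line difference in each direction. Other list members, and genes called in all fits without 1 library, were named after their values were seen. Promoter sequences are from RefSeq (GRCh38.p14), matched by symbol. Some genes are not reported here.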

Additional observations from a re-analysis of the deposited data

Results flagged for a closer look

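The folic acid difference of the OTX response is itself a test between the 2 folic acid conditions, and 779 genes passed it in IMS-M2. The difference between the lines in that quantity was tested with all 24 libraries, and 4348 genes passed. The line difference holds the IMS-M2 difference as 1 of its terms, so for genes named for a large IMS-M2 difference its sign was largely fixed by the choice.

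Among named genes called in both tests, the line difference (IMS-M2 minus U937, log2) was positive for the amino acid response genes DDIT4 (2.71), CHAC1 (1.71), PCK2 (1.66), WARS (1.22) and PSAT1 (1.11). It was also positive for CD53 (2.66), SPI1 (0.61), IFI30 (0.92), APOL2 (0.73), ENPP2 (1.41), KCNK17 (1.35), HIST1H2BC (1.49), CRIPAK (2.903) and C21orf90 (1.86).

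The line difference was negative for RPS25 (-3.71), TMEM183A (-3.48), EMC6 (-3.28), LOC100507217 (-3.26), GNG10 (-3.07), RPL24 (-3.05), MRPL54 (-2.85), MPLKIP (-2.64), LOC100652739 (-2.400) and DNAAF3 (-2.05), the leading lower genes. With all 24 libraries in the fit the IMS-M2 difference of RPS25, TMEM183A and EMC6 was not called (limma adjusted p = 0.1002, 0.0842 and 0.087), while that in U937 was, as higher (2.02, 2.13 and 1.67). The line difference was negative as well for MND1 (-1.71), LOC100129250 (-1.53), EVA1B (-1.33), VPS72 (-1.17), HSCB (-1.15), BCL2 (-0.601) and GINS2 (-0.58).

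Among genes called in the line difference that reached a mean of 5 FPKM in an IMS-M2 or U937 group, small RNAs left out, the 5 largest in each sense were SLMO2-ATP5E (6.27), EEF1E1-MUTED (5.89), INO80B-WBP1 (3.12), LOC100507118 (3.001) and CRIPAK (2.903) on the positive side, and BCYRN1 (-6.14), RPS25, TMEM183A, CAPN12 (-3.35) and EMC6 on the negative side. In that fit none of these 10 was called in IMS-M2 alone.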

How the results depend on the processing

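With 12 libraries and an unknown depth, the number of calls was the least stable quantity. Over the fits that left out 1 library, called genes numbered 82 to 3429, higher 63 to 1987, lower 19 to 1442, those with a log2 difference of at least 1 numbered 18 to 220, and opposite OTX changes, 61 with all libraries, 11 to 318. Higher members numbered 13 to 22 in the ATF4 list, 3 to 13 in the PU.1 list, 2 to 17 in the lipid list and 2 to 15 in the interferon list, and lower members of the mitosis list 0 to 19. The highest counts came without +FA DMSO library 1. The cause was not tested. The line difference was called for 3157 to 5297 genes. With array weights, by which limma gives variable libraries less weight and whose estimation stopped before full convergence, 5527 genes were called (3016 higher, 2511 lower, 176 at a log2 difference of at least 1, 633 opposite), with 17 PU.1, 19 lipid, 22 interferon and 31 mitosis genes; the line difference was called for 7689 (4612 higher, 3077 lower). Without the filter 445 were called (176 lower, 29 at a log2 of at least 1, 1 mitosis gene), more genes being tested. Genes at a log2 of at least 1 numbered 150 with a pseudocount of 0.1 FPKM and 28 with 5 FPKM. With all 24 libraries in the fit 262 were lower, 40 reached a log2 of 1 and 4 were mitosis genes. With the replicate block 2397 genes were called (1161 higher, 1236 lower, 146 opposite), with 22 mitosis, 15 lipid and 13 interferon genes. With the replicate block within folic acid condition 1920 were called (935 higher, 985 lower, 136 opposite), with 15 mitosis, 15 lipid and 11 interferon genes. Of the 18 pairs of same-numbered libraries 10 had deviations from the group means that correlated above 0.1 (range -0.11 to 0.356). For 11 of 12 libraries the mean correlation with libraries of the other groups was highest for those of their own number. That is a hint of pairing from the data and not the design, and the main fit used no block. Of 107 named called genes, all kept their direction in every setting in which they were tested. These genes were called in the same libraries that the settings reuse, so a kept direction was largely fixed by the choice. Of the 107, 43 were called in every setting other than leaving out a library, and 29 in every fit without 1 library.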

Other observations

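Some stress and growth lists outside the comparisons above had calls in the lower sense, where 3.61% of all genes tested were lower and 3.33% higher. Of 32 tested p53 targets 5 were lower and 0 higher (limma; 10 and 5 at an unadjusted p below 0.05), with a median difference of -0.09: the cell cycle inhibitor CDKN1A (-0.65, adjusted p = 0.0137), PHLDA3 (-0.61), the kinase PLK2 (-0.42), the p53 antagonist MDM2 (-0.497) and FDXR (-0.66). CDKN1A stood at 29.8, 28.2 and 27.6 FPKM in the +FA DMSO libraries, 139.8, 126 and 138 in +FA OTX, 37.9, 34.2 and 35.5 in -FA DMSO and 101, 101 and 118 in -FA OTX. Its OTX libraries lay above DMSO in both tables, with a rise of 2.197 with and 1.55 without folic acid. Without +FA DMSO library 1 the p53 count was 10 lower and 1 higher, and without any other library 0 to 4 and 0 to 1.

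Of 24 immediate early genes 4 were lower and 0 higher (limma; 4 and 3 at an unadjusted p below 0.05), namely IER5 (-1.08), EGR3 (-0.66), JUNB (-0.84) and JUND (-0.99), transcription factors and regulators of the first response to a stimulus. Of 20 heat shock genes 2 were lower and 0 higher (5 and 0 at an unadjusted p below 0.05), the small chaperone HSPB1 (-0.71) and HSPH1 (-0.62). Of 30 HOX and stem cell genes 4 were lower and 0 higher (8 and 3 at an unadjusted p below 0.05): HOXB2 (-1.21), HOXB7 (-1.002), HOXA10 (-0.96) and the RNA-binding IGF2BP3 (-0.404). HOXA9, the leading HOX gene of many leukaemias, was not called (-0.497, adjusted p = 0.0796). Without +FA DMSO library 1 these 3 lists had 7, 4 and 7 lower members and 1, 1 and 4 higher ones. Without -FA OTX library 2 they had 4, 2 and 4 lower, and without any of the other 10 libraries 0 to 2, 0 or 1 and 0 or 1, with 0 higher.

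In the inflammatory list 3 of 30 genes were higher and 3 lower. ICAM1, an adhesion molecule called in all 12 fits without 1 library, was higher (0.77), as were the chemokine CCL1 (0.503) and NFKBIZ (0.48). CCL1 was listed at 0 in all 6 OTX libraries, so its difference is that between the DMSO levels of the tables, 34.7 and 24.2 FPKM, which is untested. In the lower sense stood IL8, CSF1 (-0.47) and LTB (-0.91). Of 45 histone genes in polyadenylated RNA 37 rose with OTX in +FA and 31 in -FA, beside 29.8% and 27.5% of all genes tested. In the difference 4 were higher and 3 lower. Without 1 library these counts were 0 to 8 and 1 to 5: highest without +FA DMSO library 1, and with 0 higher without +FA OTX library 2, -FA DMSO library 1 or -FA OTX library 1 or 3. CD3E, a T cell receptor component, fell from a mean of 3.27 to 0.0867 FPKM in +FA and from 1.505 to 0.0839 in -FA (difference 0.76). HBB, the beta-globin gene, was at 10.4 FPKM in -FA OTX library 2 and at 0 in the other two of that group.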
